A study of Caenorhabditis elegans with 15 samples.

Results

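The 9 PAR polarity genes par-3, par-6, pkc-3, cdc-42, par-1, par-2, lgl-1, par-4 and par-5 were taken by symbol from a table of 20392 Caenorhabditis elegans genes, and all 9 were found and tested. RNA was sequenced from early embryos collected before the bean stage. There were 5 groups of 3 libraries each, 15 in all. The strain met-2Δ carries the deletion allele n4256 of met-2, the SETDB1-like histone H3 lysine methyltransferase, and the strain met-2-CD carries gw1660, an allele that leaves the protein catalytically deficient. WT was N2. The groups were met-2Δ embryos kept for 1 h at 37 °C, WT embryos kept for 1 h at 37 °C, met-2Δ embryos at 20 °C, met-2-CD embryos at 20 °C and WT embryos at 20 °C. No met-2-CD embryos were heated, so the heat response could be measured in met-2Δ and WT only. Each mutant is a whole-animal mutant of a single strain, and the embryos of a library were a pool.

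PAR proteins set up the anterior-posterior axis of the one-cell worm embryo. PAR-3, PAR-6 and the atypical protein kinase PKC-3, with the small GTPase CDC-42, occupy the anterior cortex, and PAR-1, PAR-2 and LGL-1 occupy the posterior cortex. Each side keeps the other away, in part by phosphorylation, while the kinase PAR-4 and the 14-3-3 protein PAR-5 are found throughout the cell. Most of their RNA in early embryos is loaded by the mother. The polarity itself lies in where the proteins sit, and a count of RNA from whole embryos does not measure it.

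Total counts per library were 16145040 to 21358627 in met-2Δ at 37 °C, 24376586 to 27127668 in WT at 37 °C, 20048555 to 26259524 in met-2Δ at 20 °C, 38142694 to 48560107 in met-2-CD and 45832193 to 58837967 in WT at 20 °C. The lowest count of any PAR gene in any library was 767. met-2 itself was at 59 to 62.7 CPM (counts scaled to library size) in met-2Δ at 37 °C and 32.5 to 34.2 CPM in met-2Δ at 20 °C. It was at 281 to 309 CPM in met-2-CD, an allele that RNA level cannot check, and at 264 to 282 CPM in WT at 37 °C and 306 to 318 CPM in WT at 20 °C. All 6 heat-shock genes listed rose with heat in both met-2Δ (median log2 fold change 7.06) and WT (7.7). The WT libraries at 20 °C stood apart from the other 12: 28 genes were at no more than 3 counts in all 3 of them and at 20 or more in every other library, or the reverse, and no other group had such a gene. None of the 28 was a PAR gene. Summed over 10 genes of early zygotic transcription, the CPM ran over 79.8 to 92.8 in met-2Δ at 37 °C, 77.3 to 83.2 in WT at 37 °C, 205 to 225 in met-2Δ at 20 °C, 198 to 226 in met-2-CD and 409 to 471 in WT at 20 °C. Summed over 5 muscle genes of later embryos it was 1590 to 1900, 1980 to 3020, 517 to 742, 404 to 867 and 77.2 to 177 CPM in the same order. Other stage markers did not follow this pattern at 20 °C. The sum of 10 maternal genes was 3680 to 4000 CPM in met-2Δ, 2610 to 3500 in met-2-CD and 3300 to 4240 in WT. That of 6 epidermis and gut genes of later embryos was 336 to 362, 434 to 545 and 376 to 448 CPM in the same order. Every comparison with WT at 20 °C, and every heat comparison, moved together with the early zygotic and muscle sums. The part of the markers in the results was not tested. In whole embryos, fewer cells of a type and less RNA per cell cannot be told apart. The comparisons that do not contrast those 3 libraries are the comparisons of met-2Δ with met-2-CD, of met-2Δ with WT at 37 °C and of met-2Δ across temperatures.

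Levels are given as CPM scaled by edgeR's TMM factors. Log2 fold changes and false discovery rates (FDR) come from edgeR's quasi-likelihood test over 15471 genes, and a gene is said to rise or fall where its FDR was below 0.01. Another scaling moves the log2 fold changes of a comparison together. Scaling to library totals raised the median of all genes to 0.264, against 0.066 with TMM, in met-2Δ over WT at 20 °C, and to 0.411, against 0.184, in WT at 37 °C over 20 °C. Restricting the fit to the 6415 genes averaging at least 20 CPM, an alternative chosen after seeing the data, put pkc-3 at -0.355, against -0.776 over all tested genes, in the WT heat comparison. A change is called stable below where it passed the test in the same direction under all 4 scalings (TMM, library totals, DESeq2 size factors and TMM over the abundant genes).

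**Figure D1:**
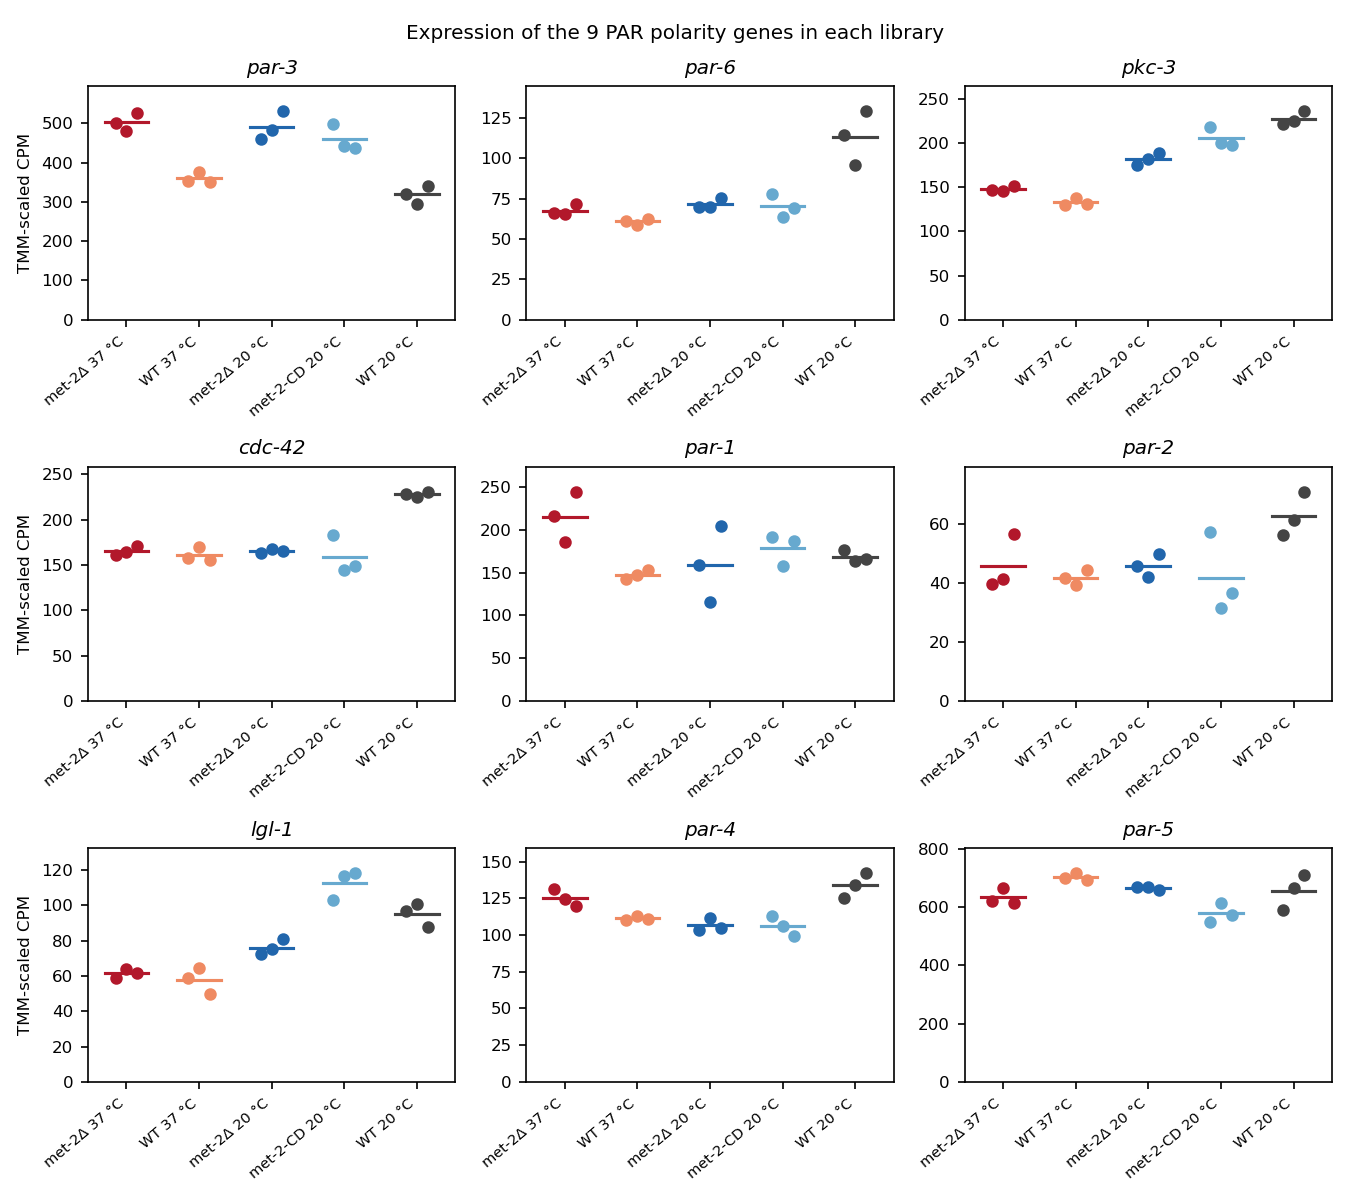
TMM-scaled CPM (vertical axes, starting at 0) of the 9 genes in each of the 15 libraries; points are libraries and lines are means of 3. par-6 and cdc-42 are highest in the 3 WT libraries at 20 °C, and par-3 is lowest there.

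The genes differed widely in level. Per kilobase of exon (TMM-scaled CPM per kilobase, exon lengths from WBcel235), par-5 averaged 522 ± 48.2 in WT at 20 °C (SD, n = 3), followed by cdc-42 at 170 ± 1.93, pkc-3 at 97.7 ± 3.29, par-6 at 80.0 ± 11.7, par-4 at 72.2 ± 4.58, par-3 at 59.6 ± 4.31, par-1 at 24.4 to 26.3, lgl-1 at 24.4 ± 1.68 and par-2 at 23.8 ± 2.79. The libraries of par-6 and par-4 overlapped, and so did those of par-1, lgl-1 and par-2, so the order within those sets was not resolved. par-5 and cdc-42 held the first and second places in all 5 groups. The place of par-3 did change: it was the sixth in WT at 20 °C and the third in met-2Δ at 37 °C (93.8 ± 4.36), in WT at 37 °C (67.2 ± 2.63) and in met-2Δ at 20 °C (91.8 ± 6.72). In met-2-CD it was at 85.8 ± 6.4, and its libraries overlapped with those of pkc-3, the third there. In WT at 20 °C, par-5 lay above 98.9% and lgl-1 above 65.2% of the tested genes with a known exon length.

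At 20 °C, par-3 was higher and par-6 and cdc-42 were lower in both met-2 mutants than in WT. Among the 9 genes 1 rose in met-2Δ (11.1% of them, against 28.2% of all genes tested) and 5 fell (against 27.5% of all genes). In met-2-CD 1 rose (against 26.5% of all genes) and 4 fell (against 24.9%). The median log2 fold change of the 9 genes was -0.32 in met-2Δ, beside 0.0655 over all genes. For met-2-CD it was -0.18, beside 0.0434. Over the abundant genes the middle value of the 9 was -0.14 (lgl-1) in met-2Δ, beside a median of -0.022 over all genes in that fit. In met-2-CD the middle value was -0.0449 (par-5), beside 0.008. Both comparisons share the WT libraries. No PAR gene changed by as much as 2-fold with an FDR below 0.01 in any comparison between genotypes.

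par-3 encodes the PDZ-domain scaffold on which the anterior complex assembles. The met-2Δ libraries had 461, 483 and 531 CPM of par-3 and the met-2-CD libraries had 498.5, 442 and 436.5 CPM, against 321, 295 and 341 CPM in WT. No mutant library overlapped with WT. The log2 fold change over WT was 0.62 ± 0.07 (SE, edgeR FDR 2.59e-06) in met-2Δ and 0.53 ± 0.07 (edgeR FDR 1.72e-05) in met-2-CD, and both rises were stable, between 0.58 and 0.82 and between 0.48 and 0.66 over the 4 scalings. The mutants did not differ detectably from each other: met-2Δ over met-2-CD was 0.10, with a 95% interval of -0.059 to 0.256.

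par-6 encodes the adaptor that holds PKC-3 and binds CDC-42. It was at 69.7, 69.9 and 75.3 CPM in the met-2Δ libraries and 78.0, 63.8 and 69.3 CPM in the met-2-CD libraries, against 114, 96.0 and 129 CPM in WT. Again the libraries did not overlap with WT. par-6 fell by 0.66 on the log2 scale in met-2Δ (SE 0.09, edgeR FDR 1.69e-05) and by 0.69 in met-2-CD (SE 0.09, edgeR FDR 1.23e-05), and both falls were stable.

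cdc-42 encodes the GTPase that activates PKC-3 at the membrane. Its level was 163, 168 and 165.5 CPM across the met-2Δ libraries and 183.5, 144 and 149 CPM across those of met-2-CD, against 229, 225.5 and 231 CPM in WT. All 3 libraries of each mutant were below WT. cdc-42 fell by 0.46 in met-2Δ (SE 0.07, edgeR FDR 5.47e-05) and by 0.52 in met-2-CD (SE 0.07, edgeR FDR 1.82e-05). Both falls were stable, the smallest being -0.264 and -0.391 over the scalings.

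pkc-3, the kinase of the anterior complex, ranged over 175.5 to 189 CPM in met-2Δ libraries and 198 to 219 CPM in met-2-CD libraries, against 222 to 236 CPM in WT. It fell by 0.32 in met-2Δ (edgeR FDR 8.45e-05), but scaling to library totals ended that call (-0.125, edgeR FDR 0.026). In met-2-CD the log2 fold change was -0.15 (edgeR FDR 0.0294). Leaving out met-2-CD library a gave -0.215 there (edgeR FDR 0.006).

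Among the posterior genes, par-1, a serine/threonine kinase, spread widely in met-2Δ, at 159, 115 and 205 CPM. It was at 192, 158 and 187 CPM among met-2-CD libraries, against 176, 164 and 166 CPM in WT. Its log2 fold change over WT was -0.08 (95% interval -0.401 to 0.238) in met-2Δ, and it turned to 0.112 with library totals and 0.103 with the abundant genes. In met-2-CD it was 0.09. par-2, a RING-finger protein that protects PAR-1 at the cortex, had 45.8, 41.98 and 49.9 CPM in met-2Δ libraries and 57.3, 31.4 and 36.5 CPM in met-2-CD libraries, against 56.4, 61.3 and 70.9 CPM in WT. The met-2Δ libraries lay below WT, and 1 met-2-CD library lay within the WT range. In met-2Δ its log2 fold change of -0.45 missed the threshold (edgeR FDR 0.0365), and it passed as a fall in the compared groups alone (-0.431, edgeR FDR 0.00365). It fell by 0.59 in met-2-CD (SE 0.18, edgeR FDR 0.00917). That call was lost with library totals (-0.471, edgeR FDR 0.0213), with the abundant genes (-0.465) and in the compared groups alone (-0.585, edgeR FDR 0.0378). It was also lost without met-2-CD library b (-0.471), met-2-CD library c (-0.531), WT library b (-0.641) or WT library c (-0.535).

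lgl-1 is the worm counterpart of the fly tumour suppressor lethal giant larvae. With TMM over all 15 libraries it was the only 1 of the 9 genes past the threshold between the mutants. The met-2Δ libraries were at 72.3, 75.1 and 80.7 CPM and the met-2-CD libraries at 103, 117 and 118 CPM, with WT between them at 96.6, 100.6 and 87.8 CPM. The 3 groups did not overlap. Over WT it fell by 0.32 in met-2Δ (SE 0.09, edgeR FDR 0.00432), a call lost with library totals (-0.126), with the abundant genes (-0.14) and without met-2Δ library a (-0.336, edgeR FDR 0.0105). In met-2-CD it was at 0.25 over WT (edgeR FDR 0.0218), past the threshold with library totals (0.377) and with the abundant genes (0.383).

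Of the genes found in both domains, par-4, the worm LKB1 kinase, had 103, 112 and 105 CPM in the met-2Δ libraries and 113, 106 and 99.45 CPM in the met-2-CD libraries, against 125, 134 and 142.3 CPM in WT, without overlap. It fell by 0.33 in met-2Δ (SE 0.06, edgeR FDR 0.000312) and by 0.33 in met-2-CD (SE 0.06, edgeR FDR 0.000289). The fall in met-2-CD was stable, and that in met-2Δ was not past the threshold with library totals (-0.129) or with the abundant genes (-0.144). par-5, which encodes a 14-3-3 protein, lay between 659 and 671 CPM in met-2Δ libraries and between 549 and 614 CPM in met-2-CD libraries, against 592 to 712 CPM in WT. Its log2 fold changes over WT were 0.02 in met-2Δ, where DESeq2 size factors turned the sign (-0.0233), and -0.18 in met-2-CD (edgeR FDR 0.0301), where leaving out met-2-CD library b (-0.274) or WT library a (-0.281) brought it past the threshold. Reads of par-5 and its near copy ftt-2 were counted only where they mapped uniquely, so its level is less certain than the others.

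**Figure D2:**
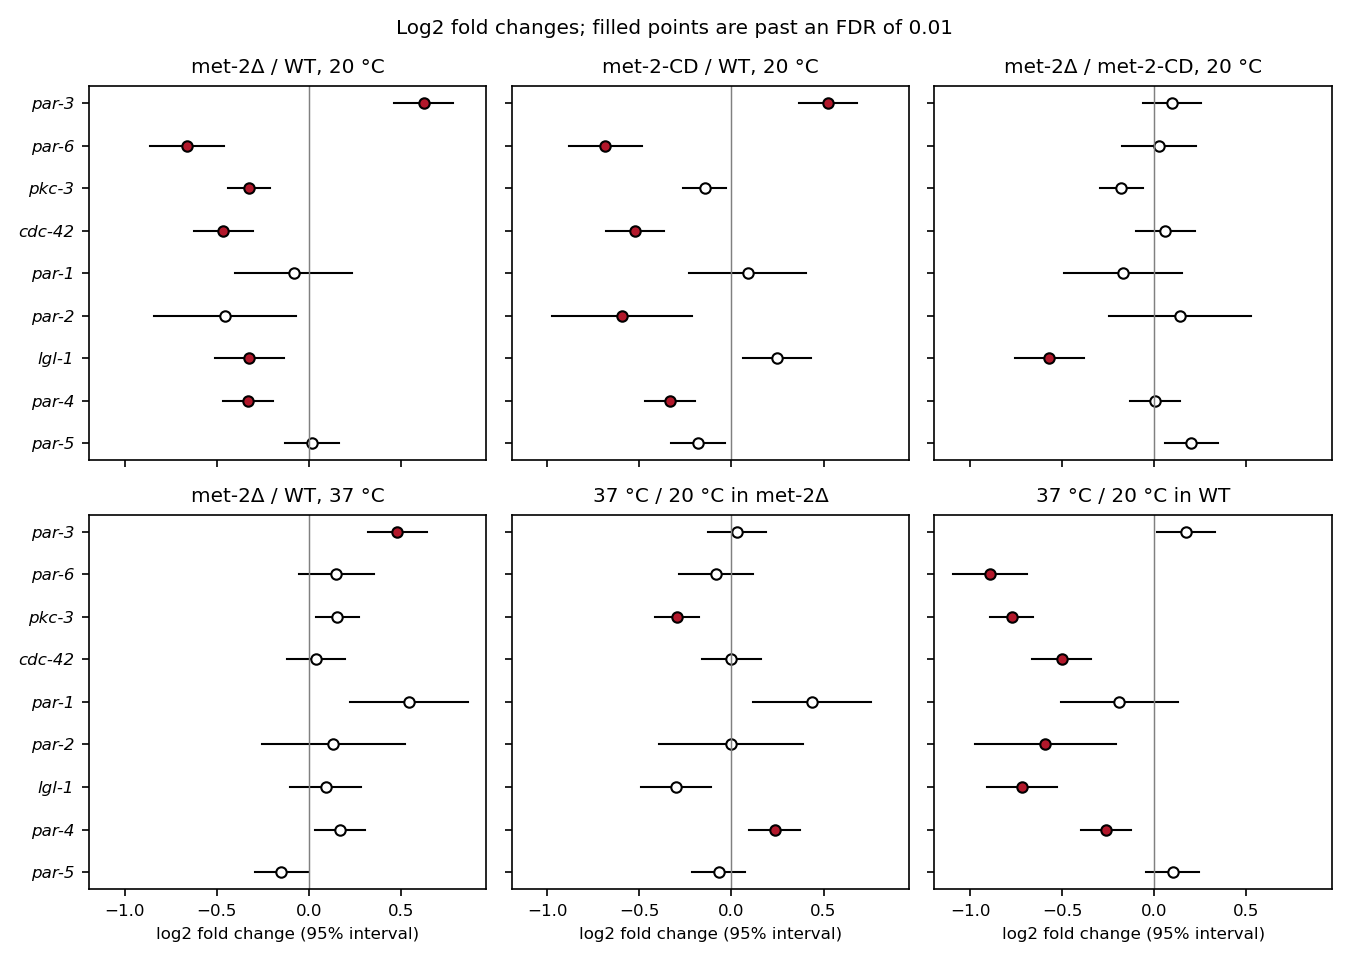
Log2 fold change of the 9 genes (horizontal axes, points) with its 95% interval (lines) in 6 comparisons, filled where the edgeR FDR was below 0.01. par-3 is to the right of 0 in met-2Δ over WT at both temperatures (0.62 and 0.48), while par-6 is to the left at 20 °C only (-0.66, against 0.15 at 37 °C).

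The comparison of met-2Δ with met-2-CD asks what the loss of the whole protein adds to the loss of its catalytic activity. Of the 9 genes none rose (against 9.58% of all genes; 1 had an unadjusted p below 0.05 in that direction, and DESeq2's Wald test also called none) and 1 fell (11.1%, against 11% of all genes). That gene was lgl-1, which fell by 0.57 (SE 0.09, 95% interval -0.757 to -0.383, edgeR FDR 0.00029) and did so under all 4 scalings and without any single library. Between these groups the summed level of the maternal genes was 3680 to 4000 CPM for met-2Δ, against 2610 to 3500 CPM for met-2-CD, and that of the epidermis and gut genes was 336 to 362 CPM, against 434 to 545 CPM. The heat-shock sum was 374 to 402 CPM for met-2Δ, against 474 to 540 CPM for met-2-CD. That of 6 yolk genes was 2.28 to 2.76 CPM, against 0.852 to 1.78 CPM. The early zygotic and later muscle sums overlapped, and the part of these markers in the result was not tested. The unadjusted p was below 0.05 for lgl-1, pkc-3 and par-5. pkc-3 was at -0.18 (edgeR FDR 0.0196), and at -0.235 past the threshold without met-2-CD library c. par-5 was at 0.20 (edgeR FDR 0.0323), and at 0.269 past the threshold with library totals. For par-6 the difference was 0.03 with an interval of -0.175 to 0.226, for cdc-42 it was 0.06 with an interval of -0.099 to 0.219, and for par-4 it was 0.00 with an interval of -0.132 to 0.14.

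Composition within the set does not depend on the scaling between libraries. par-3 took 24.0% to 25.8% of the summed counts of the 9 genes in met-2Δ at 20 °C and 23.4% to 25.0% in met-2-CD, against 15% to 16.6% in WT at 20 °C. par-6 took 3.64% to 3.65% and 3.40% to 3.91%, against 4.88% to 6.10% in WT, and cdc-42 took 8.04% to 8.77% and 7.68% to 9.20%, against 10.9% to 11.8%. The count of par-3 over that of par-6 was 6.61, 6.91 and 7.06 in met-2Δ and 6.39, 6.93 and 6.30 in met-2-CD, against 2.81, 3.07 and 2.64 in WT at 20 °C. At 37 °C it was 7.61, 7.33 and 7.37 in met-2Δ and 5.75, 6.38 and 5.63 in WT. The low ratio was thus seen in WT at 20 °C alone among the 5 groups, while par-3 was above WT in met-2Δ at both temperatures.

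**Figure D3:**
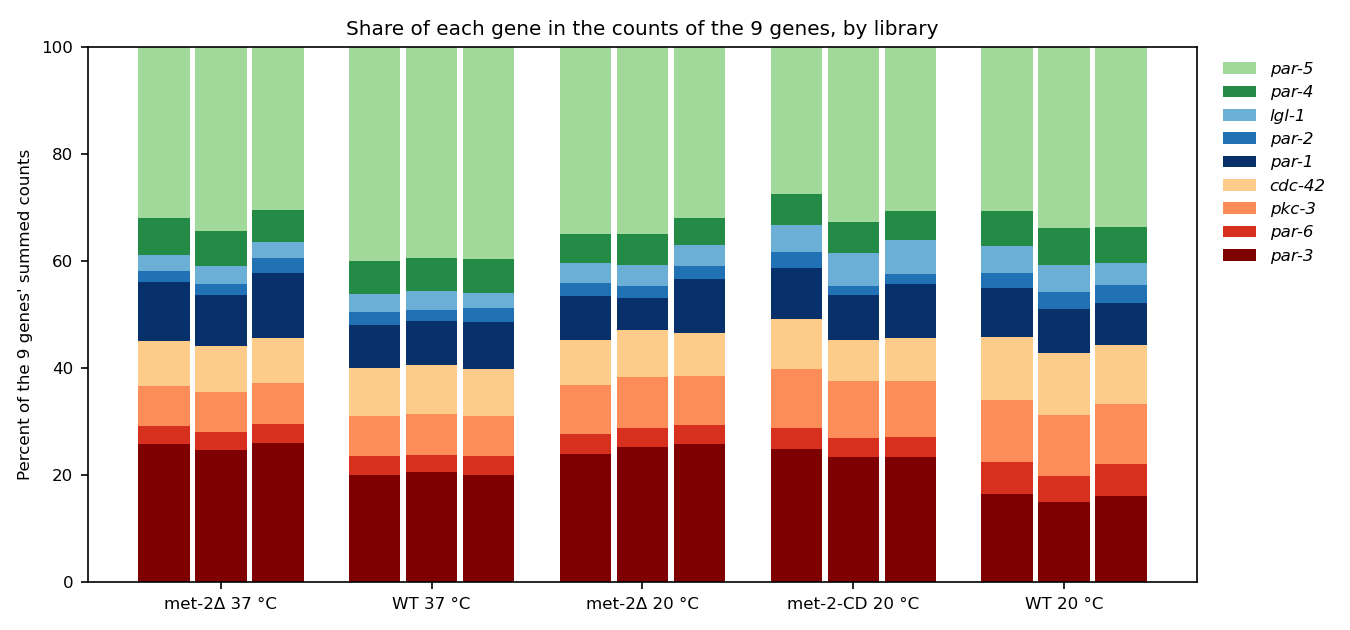
Percent of the summed counts of the 9 genes taken by each gene (stacked bars, vertical axis 0 to 100), 1 bar per library. The lowest segment, par-3, takes 15% to 16.6% in WT at 20 °C and 20.0% to 26.1% in the other 4 groups.

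With TMM scaling, 6 of the 9 PAR genes were lower in heated WT embryos than in WT embryos at 20 °C. By edgeR none of the 9 rose (against 44.0% of all genes; 1, par-3, had an unadjusted p below 0.05 in that direction, and DESeq2's Wald test also called none) and 6 fell (against 35.6% of all genes). Their median log2 fold change was -0.50, beside 0.184 over all genes. Over the abundant genes the middle value of the 9 was -0.0831 (cdc-42), beside a median of -0.022 over all genes in that fit. There pkc-3, par-6 and lgl-1 fell (against 38.6% of all genes), and par-3 and par-5 rose (against 36.9%). At 37 °C in met-2Δ 1 rose (against 17.3% of all genes) and 1 fell (against 21.2%), with a median of 0.00 beside 0.0432. No PAR gene reached the 4-fold change with an FDR below 0.01 that was set for the heat comparisons.

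The falls of pkc-3, par-6 and lgl-1 in WT were stable. pkc-3 was at 130, 137.5 and 131.5 CPM at 37 °C, against 222, 225 and 236 CPM at 20 °C, a fall of 0.78 (SE 0.05, edgeR FDR 2.6e-09). par-6 was at 61.4, 58.9 and 62.2 CPM at 37 °C, against 114, 96.0 and 129 CPM at 20 °C, a fall of 0.89 (SE 0.09, edgeR FDR 2.65e-07). lgl-1 was at 58.8, 64.5 and 50.0 CPM at 37 °C, against 96.6, 100.6 and 87.8 CPM at 20 °C, a fall of 0.72 (SE 0.09, edgeR FDR 1.48e-06). None of the 3 genes overlapped between temperatures. That did not set them apart, since 8 PAR genes had no overlap between temperatures in WT. Among these were par-1 and par-3, which did not pass the threshold with TMM. The share of all genes without overlap was not counted.

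The other WT heat results depended on the scaling. cdc-42 fell by 0.50 (SE 0.07, edgeR FDR 1.12e-05) but was at -0.0831 (edgeR FDR 0.215) with the abundant genes. par-2 fell by 0.59 (SE 0.18, edgeR FDR 0.00642), a call lost with library totals (-0.361), with the abundant genes (-0.169), and without WT library a (-0.593), b (-0.555) or c (-0.64) of the heated embryos. par-4 fell by 0.26 (SE 0.06, edgeR FDR 0.00119), was at -0.0351 with library totals, and turned to 0.157 with the abundant genes. par-3 was at 0.17 (edgeR FDR 0.0396) and par-5 at 0.10 (edgeR FDR 0.184), and both passed the threshold as rises with library totals (0.403 and 0.328) and with the abundant genes (0.595 and 0.52). par-1 was at -0.19 (edgeR FDR 0.246) and turned to 0.231 with the abundant genes, while it passed as a fall in the compared groups alone (-0.243, edgeR FDR 0.00603).

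Since the WT libraries at 20 °C stood apart, heated WT embryos were also set against met-2-CD embryos at 20 °C, which differ from them in genotype too. pkc-3 was then lower by 0.63 (edgeR FDR 6.75e-08) and lgl-1 by 0.965 (edgeR FDR 1.18e-07) in heated WT. par-6 was at -0.209 (edgeR FDR 0.0556), cdc-42 at 0.0191, par-2 at 0.00181 and par-4 at 0.0692. par-3 turned to -0.352 (edgeR FDR 0.000506), and par-5 was at 0.281 (edgeR FDR 0.0016). Of the 9 genes, lgl-1 and pkc-3 fell with both baselines.

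**Figure D4:**
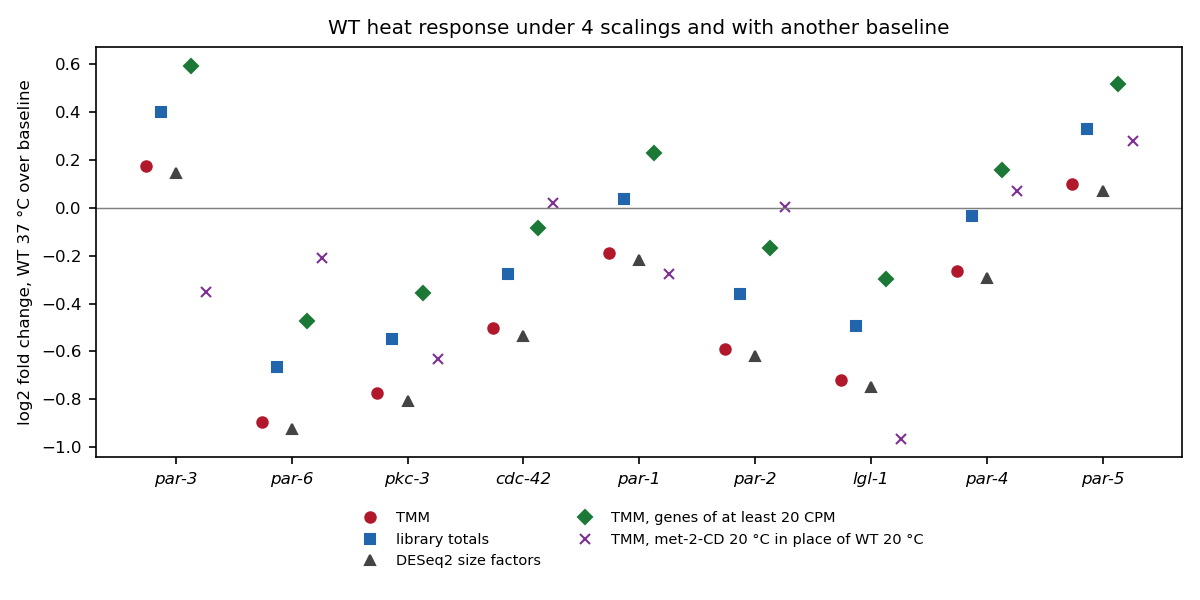
Log2 fold change of heated WT embryos (vertical axis) for the 9 genes under 4 scalings against WT at 20 °C, and against met-2-CD at 20 °C in place of it (crosses). pkc-3, lgl-1 and par-6 lie below 0 throughout (par-6 at -0.209 against met-2-CD, not past the threshold), while cdc-42 ranges between -0.534 and 0.0191.

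With heat in met-2Δ, pkc-3 fell and par-4 rose. pkc-3 was at 147, 146 and 152 CPM at 37 °C, against 175.5, 182 and 189 CPM at 20 °C, a stable fall of 0.30 (SE 0.06, edgeR FDR 0.000388). pkc-3 thus fell with heat in both genotypes. par-4 was at 132, 125 and 120 CPM at 37 °C, against 103, 112 and 105 CPM at 20 °C, a rise of 0.23 (SE 0.06, edgeR FDR 0.00679) under all 4 scalings. The rise of par-4 was past the threshold in 2 of the 6 fits that left out a library, and lost without met-2Δ libraries a (0.216) or c (0.217) at 20 °C and a (0.195) or b (0.234) at 37 °C, as well as without a filter on low counts (0.201). lgl-1 was at 58.7 to 64.0 CPM at 37 °C, against 72.3 to 80.7 CPM at 20 °C, without overlap, and its log2 fold change of -0.30 was at the threshold and not past it (edgeR FDR 0.01). It passed as a fall without a filter on low counts (-0.337, edgeR FDR 0.00747) and in the compared groups alone (-0.272, edgeR FDR 0.00162), and did not with the abundant genes (-0.163, edgeR FDR 0.156). par-1 was at 0.44 (edgeR FDR 0.0241), and past the threshold with the abundant genes (0.578, edgeR FDR 0.00685), with DESeq2's Wald test (0.458) and without met-2Δ library c at 20 °C (0.652). cdc-42 was at 0.00 with an interval of -0.161 to 0.158, and par-6 at -0.08 with an interval of -0.287 to 0.119, although their sign turned with the abundant genes (0.14 and 0.0568).

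Whether heat acted differently in met-2Δ and WT was tested as an interaction. 5 genes had a higher log2 fold change with heat in met-2Δ than in WT (against 23.1% of all genes) and none a lower one (against 27% of all genes; none had an unadjusted p below 0.05 in that direction or was called by DESeq2's Wald test). That count of 0 depended on the scaling, since par-3 and par-5 had a lower value in met-2Δ past the threshold with library totals (-0.357 and -0.383) and with the abundant genes (-0.423 and -0.448). In 4 of the 5 genes the higher value was a less negative one. The heat value in met-2Δ was -0.08 for par-6, -0.001 for cdc-42, -0.30 for pkc-3 and -0.30 for lgl-1. In WT it was -0.89, -0.50, -0.78 and -0.72 in the same order. par-4 was at 0.23 in met-2Δ and -0.26 in WT. The difference in log2 fold change was 0.81 ± 0.13 for par-6 (SE, edgeR FDR 9.5e-05) and 0.48 ± 0.08 for pkc-3 (edgeR FDR 7.64e-05), and these 2 were stable. For cdc-42 (0.50, edgeR FDR 0.00074), par-4 (0.50, edgeR FDR 0.000221) and lgl-1 (0.41, edgeR FDR 0.00953) the call was lost with library totals (0.288, 0.282 and 0.204) and with the abundant genes (0.223, 0.218 and 0.136). The call for lgl-1 was also lost without heated WT library a (0.428) or c (0.324) and without heated met-2Δ library a (0.454), b (0.391) or c (0.415), while par-1 (0.63, edgeR FDR 0.0183) passed the threshold with DESeq2 size factors (0.679, edgeR FDR 0.00958), without a filter on low counts (0.702), with DESeq2's Wald test (0.678), in the compared groups alone (0.701) and without met-2Δ library c at 20 °C (0.853), but not with library totals (0.417) or the abundant genes (0.347). With met-2-CD at 20 °C in place of WT at 20 °C, lgl-1 (0.661, edgeR FDR 0.00151) and pkc-3 (0.335, edgeR FDR 0.00555) were past the threshold, while par-6 was at 0.125 (edgeR FDR 0.512), par-4 at 0.164 (edgeR FDR 0.19) and cdc-42 at -0.0204. That contrast equals met-2Δ over WT at 37 °C less met-2Δ over met-2-CD at 20 °C, so it mixes genotype with heat. For lgl-1 the 20 °C part was -0.57 and the 37 °C part 0.09, and for pkc-3 they were -0.18 and 0.16. Against WT at 20 °C par-2 was at 0.59 (edgeR FDR 0.0577), and it passed the threshold in the compared groups alone (0.662, edgeR FDR 0.00375). Only pkc-3 had an interaction past the threshold under all 4 scalings and also passed with the met-2-CD baseline, which cannot separate heat from genotype.

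At 37 °C, met-2Δ and WT embryos differed in par-3. It was at 502, 479 and 526 CPM in met-2Δ, against 352.5, 376 and 350.5 CPM in WT, a stable rise of 0.48 (SE 0.07, 95% interval 0.323 to 0.641, edgeR FDR 0.000371) that no single library removed. It was 1 of 9 genes (11.1%, against 6.59% of all genes), and none fell by edgeR (against 10.5% of all genes; par-5 had an unadjusted p below 0.05 in that direction, and DESeq2's Wald test also called none). par-1 was at 216, 186 and 244 CPM in met-2Δ, against 142.1, 148 and 154 CPM in WT, without overlap, and its log2 fold change of 0.55 missed the threshold (edgeR FDR 0.013). It passed with DESeq2's Wald test and without a filter on low counts. The other 7 genes lay between -0.15 for par-5 and 0.17 for par-4. A fit to the 2 groups alone called 5 genes, par-1, par-3, par-4, par-6 and pkc-3, all higher in met-2Δ, in a fit that called 15.9% of all its genes higher. In that comparison the summed level of the early zygotic genes given above overlapped between the groups, while other marker sums did not. That of 10 maternal genes was higher, at 3620 to 3950 CPM in met-2Δ, against 2870 to 3290 CPM in WT. Those of the later muscle genes, of 6 epidermis and gut genes (374 to 407 CPM in met-2Δ, against 504 to 554 CPM in WT), of the heat-shock genes (9210 to 11800 CPM, against 13500 to 16900 CPM) and of 6 yolk genes (6.03 to 7.63 CPM, against 10.7 to 18.3 CPM) were lower in met-2Δ. The part of these markers in the par-3 result was not tested.

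The wider polarity network was described with 6 lists, of which 69 genes were tested. Those lists were drawn up with earlier results of these data known, and their counts stand beside the shares of all genes given above. In met-2Δ over WT at 20 °C 11 of the 69 rose (15.9%) and 29 fell (42%). There 18 rose and 25 fell with library totals, and 18 of 68 rose and 25 fell over the abundant genes. Of all genes 35.6% rose and 20.2% fell with library totals, against 31.5% and 34.9% over the abundant genes. With heat in WT 9 rose (13%) and 40 fell (58.0%), but over the abundant genes 23 rose and 22 fell, so the balance of rises and falls depended on the scaling. Between met-2Δ and WT at 37 °C 12 rose (17.4%) and none fell by edgeR, against 16 and 1 with library totals and 5 and 4 over the abundant genes. Of all genes 6.9% rose and 10.4% fell there with library totals, against 5.67% and 11.1% over the abundant genes. Single genes below are given as fitted over all tested genes.

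Among 16 genes of symmetry breaking and cortical actomyosin, 3 rose and 7 fell in met-2Δ over WT at 20 °C, with a median of -0.08 that turned to 0.12 with library totals. The highest was nop-1, a regulator of cortical contractility (0.68, edgeR FDR 6.61e-08). With heat in WT none rose and 12 fell, against 2 and 8 with library totals and 4 and 5 with the abundant genes. Of all genes 49.5% rose and 29.1% fell with library totals, against 36.9% and 38.6% with the abundant genes.

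The 12 genes of spindle positioning, which act downstream of the PAR proteins, held the lowest log2 fold change of any of the 6 lists in these 2 comparisons. Over WT at 20 °C, 3 rose and 8 fell (median -0.51). goa-1, a G-protein alpha subunit, averaged 124 CPM over the met-2Δ libraries and 121 CPM over the met-2-CD libraries, against 531 CPM in WT, a fall of 2.10 in met-2Δ (edgeR FDR 3.51e-09). dhc-1, the dynein heavy chain, averaged 1640 CPM in met-2Δ, against 762 CPM in WT, a rise of 1.11 (edgeR FDR 2.81e-08), and between met-2Δ and WT at 37 °C it rose by 0.81 (edgeR FDR 1.78e-05). With heat in WT gpr-1 fell by 2.37 (edgeR FDR 2.89e-13), though its near copy gpr-2 makes its count uncertain.

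Of 12 partners and regulators, 1 rose and 4 fell in met-2Δ over WT at 20 °C. pam-1, an aminopeptidase, averaged 770 CPM in met-2Δ, against 411 CPM in WT (0.91, edgeR FDR 2.18e-08), and was also higher at 37 °C in met-2Δ than in WT (0.42, edgeR FDR 0.000598). mop-25.2, the MO25 partner of the PAR-4 complex, fell by 0.82 (edgeR FDR 7.2e-08). With heat in WT chin-1, a GTPase-activating protein for CDC-42, fell by 1.217 (edgeR FDR 2.05e-10), and in met-2Δ by 0.39 (edgeR FDR 0.000301).

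Of 7 cytoplasmic effectors 1 rose (pos-1, 0.41, edgeR FDR 0.00208) and 1 fell (mex-6, -0.44, edgeR FDR 0.00158) in met-2Δ over WT at 20 °C, and in heated WT 1 fell (mex-6, -0.74, edgeR FDR 7.3e-06). With library totals 2 rose and none fell between met-2Δ and WT at 20 °C. Of 13 genes of epithelial polarity and junctions 2 rose and 3 fell in met-2Δ over WT at 20 °C, with hmp-2, the beta-catenin, highest (0.47, edgeR FDR 6.93e-07) and hmp-1, the alpha-catenin, lowest (-0.82, edgeR FDR 5.13e-08). With heat in WT 6 rose and 4 fell, against 9 and 1 with the abundant genes, and vab-10, a spectraplakin, was the highest (1.15, edgeR FDR 2.3e-07). In met-2-CD over WT at 20 °C 8 of the 13 rose and 3 fell, against 8 and 0 with library totals, where 31.7% of all genes rose and 20.2% fell. In met-2Δ over met-2-CD none rose and 7 fell (median -0.28), against 1 and 5 with library totals, where 12.7% of all genes rose and 6.47% fell. The summed level of the 13 genes was 5610 to 6870 CPM in met-2Δ at 20 °C, against 8760 to 9620 CPM in met-2-CD.

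For each PAR gene the tested gene most like it was the one with the highest Pearson correlation of log2 CPM over the 15 libraries, which share 5 groups and 1 scaling, so these values are descriptions. They were ttc-17 for pkc-3 (r = 0.992), asd-1 for par-6 (0.988), alh-10 for lgl-1 (0.984), Y66D12A.19 for par-3 (0.977), fld-1 for cdc-42 (0.972), mys-2 for par-2 (0.956), bath-42 for par-4 (0.948), sos-1 for par-1 (0.944) and twk-34 for par-5 (0.850). pkc-3 had 480 genes above 0.95, par-6 had 104, and par-1, par-4 and par-5 had none.

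In the WBcel235 annotation the genes lie on chromosome III (par-2, 1081401 to 1095082, and par-3, 5664233 to 5676795), chromosome II (pkc-3, 5380027 to 5384169, and cdc-42, 7616452 to 7618245), chromosome V (par-1, 14112033 to 14145367, and par-4, 18098687 to 18106405), chromosome IV (par-5, 11820506 to 11821924), chromosome I (par-6, 12669380 to 12674449) and chromosome X (lgl-1, 864097 to 871089). met-2 is also on chromosome III. No PAR gene shares exon bases with a gene on the same strand. cdc-42, par-1, par-3 and pkc-3 overlap exons of genes on the other strand, and reads were counted by strand.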

How the data were processed

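Early-embryo RNA was rRNA-depleted and sequenced with strand kept, per the labels. The authors trimmed reads with Trimmomatic, aligned them with hisat2 through QuasR to ce10, and deposited raw counts of uniquely mapping, same-strand reads over WS220 exons. Positions and exon lengths are from WBcel235, matched by gene ID and never converted (97.4% of the 20392 IDs were found). 327 genes had no count in any library.

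Counts were analysed with edgeR 4.0.16 (R 4.3.3): TMM factors, filterByExpr, 1 mean for each of the 5 groups over all 15 libraries, and quasi-likelihood tests of 7 contrasts with Benjamini-Hochberg adjustment over 15471 genes. The call threshold was an FDR of 0.01. The study's fold limits (2 between genotypes, 4 between temperatures) were an alternative, as were DESeq2 1.42.0 (size factors and Wald test), library totals, no low-count filter, the compared groups alone, a letter block, leaving out each library, and another baseline. Replicates were labelled independent biological samples. Column letters carry no replicate number of the labels, so columns were matched to groups only. All 9 members were named; from each further list the highest and lowest in met-2Δ over WT at 20 °C and in WT heat were named, with any gene needed to describe it, and 1 correlated gene per member. Members and lists were chosen with earlier results of these data known. The fit was tested on simulated data. 0 columns were left unused. Some genes that this rule names, and 1 of the 6 further lists, are counted among the 69 genes but not reported here.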

Additional observations from a re-analysis of the deposited data

Results flagged for a closer look

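The heat response differed between met-2Δ and WT embryos in 5 of the 9 PAR genes by edgeR's interaction test (FDR below 0.01). All 5 values were higher in met-2Δ. Of all genes tested, 23.1% were higher and 27% were lower by the same test. In log2 units, met-2Δ minus WT, the difference was 0.81 for par-6, 0.50 for cdc-42, 0.50 for par-4, 0.48 for pkc-3 and 0.41 for lgl-1. In par-6 the response was -0.08 in met-2Δ and -0.89 in WT, and in pkc-3 it was -0.30 in met-2Δ and -0.78 in WT. In par-4 it was 0.23 in met-2Δ and -0.26 in WT. With library totals and with the abundant genes, cdc-42, par-4 and lgl-1 were no longer past the threshold. With met-2-CD at 20 °C in place of WT at 20 °C, the difference was 0.125 for par-6 (edgeR FDR 0.512), -0.0204 for cdc-42 and 0.164 for par-4 (edgeR FDR 0.19), and only lgl-1 (0.661) and pkc-3 (0.335) were past the threshold. That contrast mixes genotype with heat. The 5 values above use the WT libraries at 20 °C, which stood apart in 28 genes, and the part of that difference in the interaction was not tested. Groups of 3 libraries are too small for a test of single outlying libraries.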

How the results depend on the processing

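Small values near 0 changed sign most often. In met-2Δ over WT at 20 °C par-1 was at 0.112 with library totals and 0.103 with genes of at least 20 CPM (a filter chosen after seeing the data), and par-5 at -0.0233 with DESeq2 size factors, -0.000328 without a low-count filter and -0.0232 with DESeq2's Wald test. With heat in met-2Δ, cdc-42 and par-2 were at 0.0123 and 0.0119 with library totals, 0.019 and 0.0192 with size factors, 0.0189 and 0.0201 with the Wald test, 0.0301 and 0.0298 in the compared groups alone, and 0.14 and 0.138 with the abundant genes, which also put par-5 at 0.0717 and par-6 at 0.0568; par-3 was at -0.00148 without a filter. Without a filter par-4 and par-6 were at -0.0235 and -0.00035 in met-2Δ over met-2-CD, and par-5 at -0.00753 with heat in WT. With heat in WT par-1 was at 0.0384 with library totals and 0.231 with the abundant genes, which put par-4 at 0.157. In met-2Δ over WT at 37 °C the abundant genes gave -0.0557 for cdc-42 and -0.00351 for lgl-1. With met-2-CD at 20 °C as baseline the WT heat response was 0.0191 for cdc-42, 0.00181 for par-2, -0.352 for par-3 and 0.0692 for par-4, and the interaction was -0.0204 for cdc-42, -0.00392 for par-2 and 0.384 for par-3. The cause of these changes was not tested.

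The number of PAR genes past the threshold in met-2Δ over WT at 20 °C was 3 with library totals, against 6. Of all genes 35.6% rose and 20.2% fell there with library totals, against 28.2% and 27.5%. In met-2Δ over met-2-CD the number was 2 with library totals, against 1, and 12.7% of all genes rose and 6.47% fell, against 9.58% and 11%. In met-2Δ over WT at 37 °C the number was 2 without a filter, 2 with the Wald test and 5 in the compared groups alone, against 1. Of all genes in those fits 6.52%, 7.58% and 15.9% rose, against 6.59%. The shares that fell were 6.78%, 11.4% and 18.5%, against 10.5%. The interaction had 2 with the met-2-CD baseline, against 5. With that baseline 5.27% of all genes were higher and 8.87% lower, against 23.1% and 27%. With the fold limits the count was 0 in all 7 comparisons. At an FDR of 0.05 it was 8 in met-2-CD over WT, 3 in met-2Δ over met-2-CD, 4 with heat in met-2Δ and 3 in met-2Δ over WT at 37 °C. No share of all genes is given for the fold limits or for an FDR of 0.05, so these counts cannot be set against one. In WT heat, library totals also gave 6 genes, but par-3 and par-5 took the places of par-2 and par-4. Of all genes 49.5% rose and 29.1% fell there, against 44% and 35.6%.

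Scaling to library totals moved the share of all called genes that were higher to 63.8%, against 50.6%, in met-2Δ over WT at 20 °C, to 66.3%, against 46.6%, in met-2Δ over met-2-CD, and to 32.5%, against 46.1%, in the interaction. Testing without a filter moved it to 49%, against 38.6%, in met-2Δ over WT at 37 °C.

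With the column letter as a replicate block, the count in met-2Δ over WT at 37 °C was 2, against 1. There 5.77% of all genes rose and 8.63% fell, against 6.59% and 10.5%. With the block the rise of par-4 with heat in met-2Δ was no longer past the threshold (edgeR FDR 0.0112). The threshold was passed by lgl-1 (-0.306) and par-1 (0.451) with heat in met-2Δ and by par-1 (0.641) in the interaction. Same-letter libraries of different groups deviated together with r between -0.399 and 0.182 over 30 pairs, and other pairs between -0.305 and 0.387, so the letters were not read as a pairing.

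Leaving out 1 library at a time gave 1 to 2 called genes in met-2Δ over met-2-CD and 1 to 2 with heat in met-2Δ. For log2 fold changes that changed sign, the range in met-2Δ over met-2-CD was -0.0115 to 0.151 for cdc-42, -0.393 to 0.00338 for par-1, -0.0329 to 0.411 for par-2, -0.0713 to 0.0259 for par-4 and -0.041 to 0.0823 for par-6. In met-2Δ over WT it was -0.302 to 0.0586 for par-1 and -0.1 to 0.0292 for par-5 at 20 °C, and -0.000137 to 0.182 for lgl-1 and -0.0378 to 0.232 for par-2 at 37 °C. With heat it was -0.0502 to 0.107 for par-5 in WT, and -0.0272 to 0.0171 for cdc-42, -0.183 to 0.0879 for par-2 and -0.00711 to 0.0868 for par-3 in met-2Δ.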
